A study of Mus musculus with 18 samples.

Results

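The suppressors of cytokine signalling (SOCS proteins) and their relative CIS, encoded by Cish, are intracellular brakes on cytokine receptors. The family was examined here by RNA-seq in macrophages, the engulfing cells of innate immunity, which had been differentiated in culture from the bone marrow of mice. Its members, Socs1 to Socs7 and Cish, were chosen by gene name, so that no measured value set the membership, although the family was proposed with earlier results of these data known. All 8 members were found among the 30530 genes of the count table, and all 8 passed the filter on low counts that left 12741 genes for testing, also when the group in which Socs2 and Cish were highest was left out of the filter.

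The study varied 25-hydroxycholesterol (25HC), an oxidised cholesterol whose synthesis in macrophages depends on cholesterol 25-hydroxylase, the product of Ch25h. Macrophages of C57BL/6 mice (B6) were given 5 µM of 25HC for 18 hours and then Pam3CSK4 at 300 ng/mL (PAM3), a man-made lipopeptide that mimics bacterial ones and activates Toll-like receptors, or 25HC alone. Macrophages of mice without a working Ch25h gene (Ch25h-/-) received no 25HC and were studied with PAM3 and at rest, as were untreated B6 macrophages. Each of the 6 groups held 3 libraries, numbered 1 to 3 by mouse, so that libraries of the same number and genotype came from 1 animal and p-values rest on 3 animals per group. The labels give a stimulation time, with no unit, of 18 for PAM3 and 0 for rest. In comparisons of PAM3 with rest the stimulus and a difference in culture time therefore cannot be told apart. They also give a treatment time of 18 hours with 25HC and 0 for untreated cells. The same limit thus holds for 25HC against untreated cells and for the interaction of 25HC with PAM3.

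A cytokine that binds its receptor activates Janus kinases (JAKs), which phosphorylate STAT transcription factors, and STATs switch on SOCS genes whose products then damp the same pathway. Each SOCS protein carries an SH2 domain, which binds phosphorylated tyrosine, and a SOCS box, which recruits elongins and a cullin so that bound proteins are marked for degradation. SOCS1 and SOCS3 also block JAK activity directly and are known in macrophages as inducible brakes on interferon and interleukin-6 signalling, CIS and SOCS2 are induced by STAT5 downstream of receptors such as those for GM-CSF and growth hormone, and SOCS4 to SOCS7 are linked mostly to growth factor and insulin receptor signalling.

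RefSeq promoter sequences (GRCm38.p6, 250 bases before to 50 bases after the gene start in RefSeq) were at hand for 4 of the 8 members, namely Cish, Socs3, Socs1 and Socs4. Those of Cish and Socs3 are shown because they hold the letters TTCNNNGAA, the palindromic core that STAT dimers are known to bind. Capitals mark each match, and both windows read 5′ to 3′ on the strand of the gene.
Cish, chr9:107296409-107296708, plus strand: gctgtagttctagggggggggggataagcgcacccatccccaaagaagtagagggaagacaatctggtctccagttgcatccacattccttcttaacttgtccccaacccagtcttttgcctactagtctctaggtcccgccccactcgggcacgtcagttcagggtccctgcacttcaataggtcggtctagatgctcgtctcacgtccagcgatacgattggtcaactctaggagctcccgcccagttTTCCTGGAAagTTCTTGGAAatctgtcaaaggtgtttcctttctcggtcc
Socs3, chr11:117969317-117969616, minus strand: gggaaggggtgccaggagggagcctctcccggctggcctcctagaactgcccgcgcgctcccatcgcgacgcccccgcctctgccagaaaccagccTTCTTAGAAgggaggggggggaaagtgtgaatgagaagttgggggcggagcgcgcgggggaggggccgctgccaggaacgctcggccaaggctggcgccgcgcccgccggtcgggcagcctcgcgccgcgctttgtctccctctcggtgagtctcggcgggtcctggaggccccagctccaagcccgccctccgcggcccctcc

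The Cish window held 2 matches, TTCCTGGAA from base 251 of the window and TTCTTGGAA from base 262, and the Socs3 window held 1, TTCTTAGAA from base 97. Of 32851 RefSeq promoter windows of this kind, 8.3% held at least 1 such match and 0.457% at least 2, and the motif reads the same on both strands. The letters TTCNNNGAA were not in the Socs1 and Socs4 windows. A form with 1 more free base in the gap was also searched, and it was in none of the 4 windows and in 6.95% of all windows.

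Gene positions follow another annotation, GENCODE M21 on GRCm38, in which Cish and Socs3 start upstream of the RefSeq start, so that both windows lie inside the annotated genes. In it Socs1 lies on the minus strand of chromosome 16 from 10782240 to 10785536 and Socs3 on the minus strand of chromosome 11 from 117966079 to 117970047. Cish lies on the plus strand of chromosome 9 from 107296026 to 107302784, and Socs2 on the minus strand of chromosome 10 from 95385362 to 95417180. The plus strand holds Socs4 (chromosome 14, 47276931 to 47296102), Socs5 (chromosome 17, 87107679 to 87137839) and Socs7 (chromosome 11, 97362551 to 97398542), and the minus strand of chromosome 18 holds Socs6 (88665224 to 88927481). Exons of Cish share 479 bases with the antisense gene Gm17041 and 261 bases with the pseudogene Gm17040, both on the opposite strand and neither listed in the count table. The libraries were made with a stranded kit but how strand was set in the counting is not stated, so part of the Cish counts may stem from these transcripts.

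Total gene counts per library ran from 14.04 M to 150.4 M, a 10.7-fold range, and levels are given as CPM, the count scaled to a common library total, with mean ± SD over n = 3. Ch25h held 0.0477, 0.0871 and 0 CPM in Ch25h-/- cells with PAM3, against 3.55, 1.66 and 2.14 CPM in B6, and 0.099, 0 and 0.119 CPM in Ch25h-/- cells at rest, against 20.4, 3.16 and 10.2 CPM in B6. All 9 macrophage markers listed had a mean over 1 CPM in every group, with summed levels between 21100 and 59900 CPM over the libraries. The T cell markers Cd3e and Cd3g were at 0 in all libraries, but replicate 2 at rest stood apart, with Cd4 at 56 CPM in Ch25h-/- cells (8.66 and 14.9 in replicates 1 and 3) and 26.2 CPM in untreated B6 (10.8 and 14.1), and with the 7 neutrophil markers summing to 69.3 CPM in Ch25h-/- cells (13 and 22.6). The other T cell markers Cd3d, Cd8a and Lck reached at most 0.0686, 0.0477 and 1.09 CPM in any library. In untreated B6 cells at rest the neutrophil markers summed to 4.64 CPM in replicate 2 (4.3 and 6.42 in the others). Macrophage markers were also highest in resting replicate 2, at 41500 CPM in Ch25h-/- and 33000 CPM in untreated B6 cells. Resting Ch25h-/- replicate 2 was also the highest of its group in summed stromal cell (12.7 CPM), B cell (14.8 CPM), dendritic cell (3.09 CPM) and NK cell (0.754 CPM) markers. It was not the highest in mast cell and basophil or osteoclast markers. In bulk libraries fewer cells of a type and less RNA per cell cannot be told apart.

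**Figure D1:**
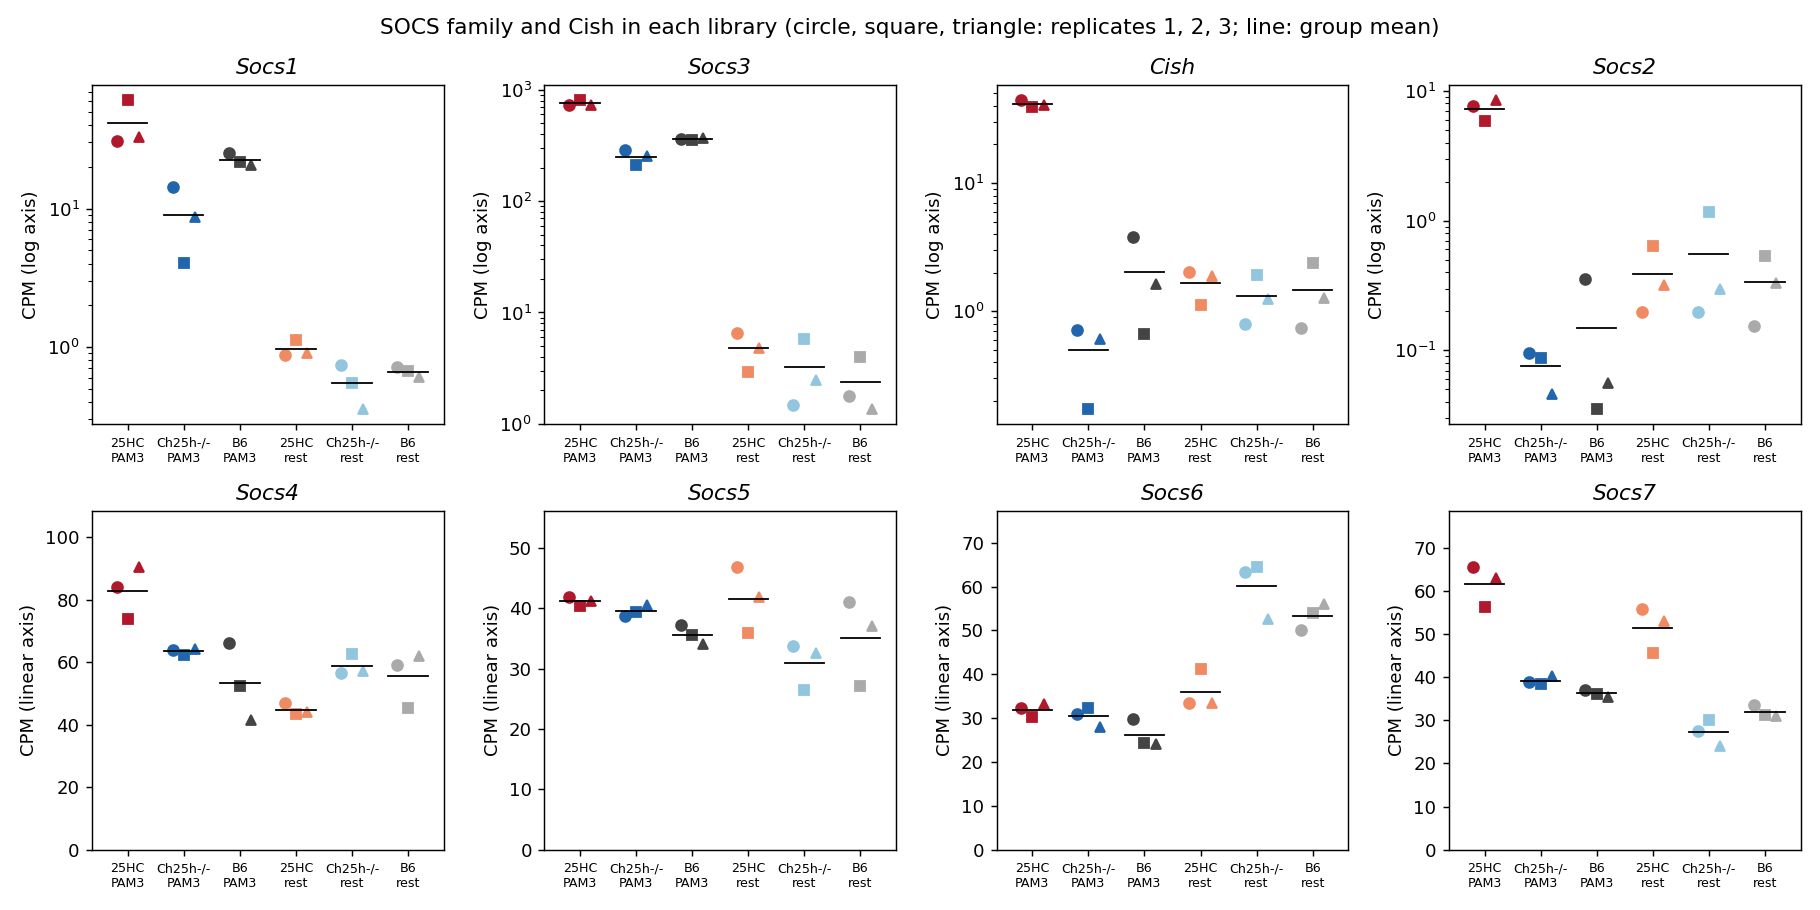
Level of each family member in CPM in every library, with 6 groups of 3 libraries along the x axis (log y axis for Socs1, Socs3, Cish and Socs2, linear from 0 for Socs4 to Socs7; lines are group means). Cish (39.2 to 44.2 CPM) and Socs2 (5.84 to 8.46 CPM) are high in the 3 libraries with 25HC and PAM3 and low in the other 15, while Socs1 and Socs3 are high in all 9 libraries with PAM3.

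With PAM3, 25HC-treated B6 macrophages held more RNA of 6 of the 8 members than untreated B6 macrophages, and none of the 8 was called lower. The rise was 59.6-fold for Socs2 and 21.1-fold for Cish, the pair induced by STAT5 in other settings, with sizes that depended on single untreated libraries, and was smaller for Socs1, Socs3, Socs4 and Socs7. Among all tested genes 21.5% rose and 23.6% fell in this comparison. The median log2 fold change was 0.82 over the 8 members and -0.04 over all tested genes.

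Cish, which encodes a protein that binds activated cytokine receptors and limits STAT5 signalling, stood at 44.2, 39.2 and 40.4 CPM in 25HC-treated B6 cells with PAM3, against 3.78, 0.669 and 1.63 CPM in untreated B6 cells with PAM3. The groups were far apart, and the untreated libraries differed among themselves, with replicate 1 highest. The log2 fold change was 4.40 ± 0.55 (SE, edgeR quasi-likelihood test, adjusted p = 2.06e-05 after Benjamini-Hochberg adjustment over all tested genes), and Cish was higher in 3 of 3 animals. Without untreated replicate 1 it was 5.26, and over the 6 libraries left out in turn it ran from 3.93 to 5.26.

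Socs2, a brake on growth hormone signalling in other tissues, stood at 7.64, 5.84 and 8.46 CPM in 25HC-treated B6 cells with PAM3, against 0.358, 0.0356 and 0.0563 CPM in untreated B6 cells with PAM3. Behind these values were 435, 766 and 366 counts with 25HC, against 14, 5 and 2 counts without it. Each treated library was above each untreated one, and replicate 1 was again the highest of the untreated ones. The log2 fold change was 5.90 ± 0.70 (SE, edgeR adjusted p = 1.32e-05). The size rests on few counts in the untreated group, and the log2 value was 7.39 without untreated replicate 1 and 5.09 without untreated replicate 2.

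Socs3, which restrains signalling through the interleukin-6 receptor subunit gp130, was the most abundant member with PAM3 and stood at 734, 804 and 733 CPM with 25HC and PAM3, against 362, 352 and 369 CPM with PAM3 alone. The 2 groups did not overlap and varied little within themselves. The log2 fold change was 1.07 ± 0.36 (SE, edgeR adjusted p = 0.0247). This call was lost when any 1 of the 6 libraries was left out, with edgeR adjusted p between 0.0509 and 0.069 and log2 fold changes between 1.02 and 1.09. The SE comes from the fit over all 6 groups, so it does not measure the spread within these 2 groups alone. With the animal as replicate block the edgeR adjusted p was 0.0323.

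Socs1, which blocks JAK activity downstream of interferon receptors, stood at 31, 60.5 and 32.7 CPM with 25HC and PAM3, against 25.3, 21.7 and 20.6 CPM with PAM3 alone. Replicate 2 of the treated group was far above the other libraries, while replicates 1 and 3 lay just above the untreated range. The log2 fold change was 0.88 ± 0.33 (SE, edgeR adjusted p = 0.0384), and without replicate 2 of the treated group it was 0.50 with an adjusted p of 0.232. The call was also lost without any 1 untreated library (adjusted p 0.0509 to 0.109) and with no filter on low counts (adjusted p = 0.0547).

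Socs7, reported to act on insulin receptor substrates, stood at 65.5, 56.3 and 63.1 CPM with 25HC and PAM3, against 37.1, 36.2 and 35.5 CPM with PAM3 alone. No library of one group reached the other, and Socs7 rose (log2 fold change 0.76 ± 0.10 SE, edgeR adjusted p = 2.01e-05). Socs4, reported to act on the epidermal growth factor receptor, stood at 84.1, 73.8 and 90.4 CPM with 25HC and PAM3, against 66.1, 52.3 and 41.5 CPM with PAM3 alone. It rose by less, and its untreated libraries were spread over a wider range (log2 fold change 0.63 ± 0.14 SE, edgeR adjusted p = 0.00226).

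The other members, Socs5 and Socs6, showed small differences that were not called. Socs6, linked to the receptors KIT and FLT3, averaged 31.8 ± 1.53 CPM with 25HC and PAM3 and 26 ± 3.23 CPM with PAM3 alone (log2 fold change 0.29 ± 0.11 SE, edgeR adjusted p = 0.0508, and 0.049 with the animal as replicate block). It lay just outside the threshold, and just inside it under the DESeq2 Wald test (adjusted p = 0.0476). Socs5, the nearest relative of Socs4, averaged 41.1 ± 0.716 CPM with 25HC and PAM3 and 35.6 ± 1.6 CPM with PAM3 alone (log2 fold change 0.21, edgeR adjusted p = 0.218).

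**Figure D2:**
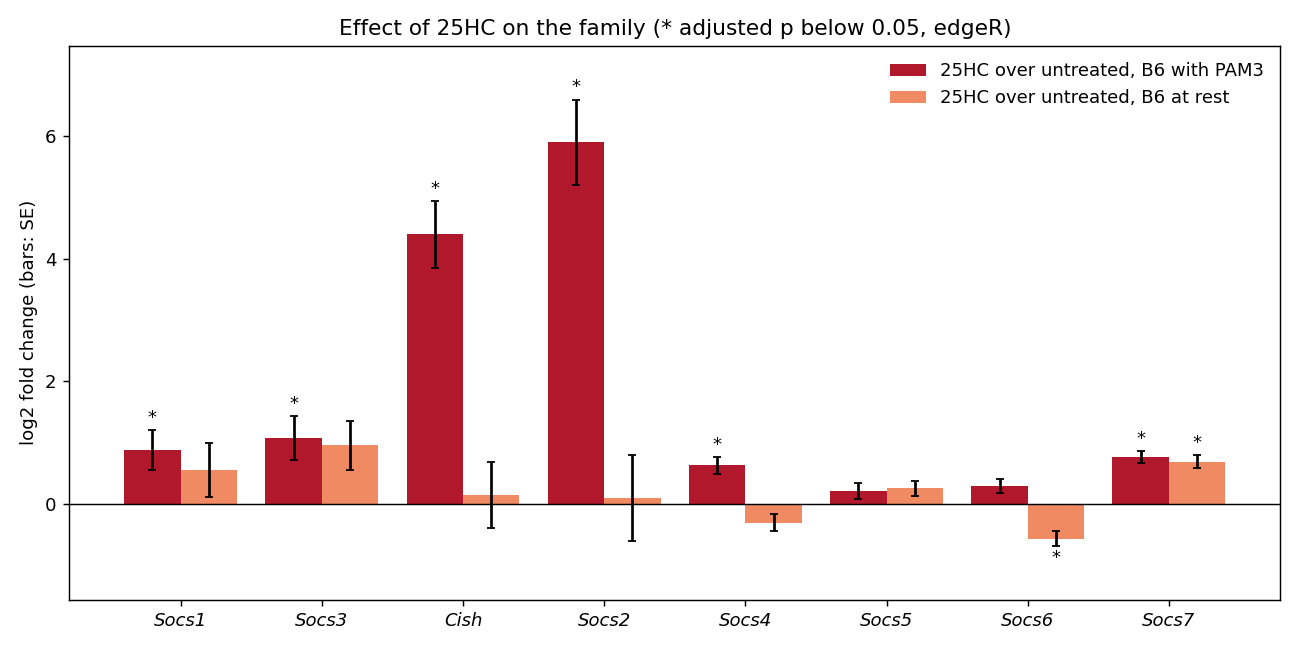
Log2 fold change of 25HC-treated over untreated B6 cells for each member, with PAM3 and at rest, with bars for the SE and stars for an adjusted p below 0.05 in edgeR. With PAM3 the bars of Cish (4.40) and Socs2 (5.90) stand far above those of the other members, and at rest both are close to 0, at 0.14 and 0.10.

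At rest 25HC changed 2 of the 8 members. Socs7 rose and Socs6 fell. Among all tested genes 14.8% rose and 11.4% fell, and the median log2 fold change was 0.19 over the members and -0.01 over all tested genes.

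Socs7 stood at 55.8, 45.6 and 53 CPM in 25HC-treated B6 cells at rest, against 33.5, 31.3 and 31 CPM in untreated B6 cells at rest. The groups did not overlap (log2 fold change 0.69 ± 0.10 SE, edgeR adjusted p = 0.000288). Socs7 was thus called higher with 25HC at rest and with PAM3, and the difference between the 2 effects was not called (log2 0.07, edgeR adjusted p = 0.707).

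Socs6 stood at 33.4, 41.1 and 33.4 CPM in 25HC-treated B6 cells at rest, against 50, 54 and 56 CPM in untreated B6 cells at rest. All treated libraries were below all untreated ones (log2 fold change -0.57 ± 0.12 SE, edgeR adjusted p = 0.00288).

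Cish and Socs2 were low at rest with and without 25HC. Cish stood at 2.02, 1.12 and 1.87 CPM with 25HC, against 0.742, 2.4 and 1.27 CPM without it, and Socs2 stood at 0.198, 0.637 and 0.322 CPM with 25HC, against 0.155, 0.53 and 0.332 CPM without it. The groups overlapped for both genes (log2 fold change 0.14 for Cish, edgeR adjusted p = 0.87, and 0.10 for Socs2, edgeR adjusted p = 0.933).

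Socs3 stood at 6.57, 2.92 and 4.79 CPM with 25HC at rest, against 1.79, 3.96 and 1.37 CPM without it. Replicate 2 was the lowest treated and the highest untreated library, and the groups overlapped through it (log2 fold change 0.96 ± 0.40 SE, edgeR adjusted p = 0.0911). Without replicate 2 of every group the log2 fold change was 1.86 (edgeR adjusted p = 0.000116). Cd4 was highest in the same replicate of both groups, at 8.99 CPM with 25HC (4.08 and 4.67 in the others) and 26.2 CPM without it, and its part in the result was not tested. Socs1 averaged 0.965 ± 0.138 CPM with 25HC and 0.661 ± 0.0547 CPM without it. Socs4 averaged 44.8 ± 1.94 CPM with 25HC and 55.6 ± 8.83 CPM without it, and Socs5 averaged 41.5 ± 5.44 CPM with 25HC and 35.1 ± 7.08 CPM without it. None of these 3 was called (edgeR adjusted p 0.37, 0.126 and 0.191). Without untreated replicate 2, 4 members were called in place of 2, with Socs3 (1.60, adjusted p = 0.0156) and Socs4 (-0.44, adjusted p = 0.0453) added.

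Whether 25HC had another effect with PAM3 than at rest was tested as an interaction, the difference between the 2 log2 fold changes. It was called for 4 of the 8 members, all toward a higher effect with PAM3, and among all tested genes it was called upward for 12.5% and downward for 15.8%. The 4 were Socs2 (5.80 ± 0.98 SE, edgeR adjusted p = 0.00115), Cish (4.26 ± 0.75 SE, adjusted p = 0.0015), Socs4 (0.94 ± 0.20 SE, adjusted p = 0.00461) and Socs6 (0.86 ± 0.16 SE, adjusted p = 0.00218). For Socs2 and Cish the effect of 25HC was 5.90 and 4.40 with PAM3, against 0.10 and 0.14 at rest. For Socs4 the values were 0.63 with PAM3 and -0.31 at rest, and for Socs6 they were 0.29 with PAM3 and -0.57 at rest. Without untreated PAM3 replicate 1 the interaction was 7.29 for Socs2 and 5.12 for Cish, without untreated PAM3 replicate 2 it was 4.99 for Socs2, and without replicate 2 of every group it was 5.17 for Socs2 and 3.05 for Cish, all called. The interaction was 0.33 for Socs1 and 0.10 for Socs3, neither called (edgeR adjusted p = 0.676 and 0.905), although without replicate 2 of every group that of Socs3 was -0.85 (adjusted p = 0.0256).

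PAM3 raised Socs1 and Socs3 in all 3 backgrounds, by 4.0 to 7.31 on the log2 scale. The 3 comparisons use separate libraries, but those of 25HC-treated and untreated B6 cells came from the same 3 mice. The fit shares 1 estimate of the spread. Genes called higher and lower made up 28.5% and 30.4% of all tested genes in 25HC-treated B6 cells, 29.9% and 32.1% in Ch25h-/- cells, and 31.3% and 30.8% in untreated B6 cells. Of the members, 6 were called higher and none lower in 25HC-treated B6 cells, 4 higher and 2 lower in Ch25h-/- cells, and 2 higher and 1 lower in untreated B6 cells. The median log2 fold change of the members was 2.56 in 25HC-treated B6, 0.23 in Ch25h-/- and 0.10 in untreated B6 cells, and that of all tested genes lay between -0.04 and 0.00.

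Socs3 stood at 734 to 804 CPM with PAM3, against 2.92 to 6.57 CPM at rest, in 25HC-treated B6 cells (log2 fold change 7.31 ± 0.48 SE, edgeR adjusted p = 1.89e-08). In Ch25h-/- cells it stood at 288, 209 and 257 CPM with PAM3, against 1.49, 5.76 and 2.5 CPM at rest (6.31 ± 0.47 SE, adjusted p = 5.78e-08). In untreated B6 cells PAM3 raised it by 7.21 ± 0.48 on the log2 scale (SE, adjusted p = 1.78e-08). Every PAM3 library was above every resting one, and replicate 2 was the highest of its group at rest in Ch25h-/- and in untreated B6 cells, where Cd4 was highest as well; their part in the result was not tested. Without resting replicate 2 the log2 fold change was 6.99 in Ch25h-/- cells and 7.85 in untreated B6 cells.

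Socs1 was at 1.12 CPM or less in all resting libraries and rose with a log2 fold change of 5.42 ± 0.42 in 25HC-treated B6 cells, 4.0 ± 0.46 in Ch25h-/- cells and 5.09 ± 0.41 in untreated B6 cells (SE, edgeR adjusted p = 8.37e-08, 3.41e-06 and 1.03e-07). In Ch25h-/- cells with PAM3 it stood at 14.4, 4.01 and 8.69 CPM, against 0.743, 0.549 and 0.358 CPM at rest.

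Cish and Socs2 rose with PAM3 in 25HC-treated B6 cells, by 4.62 ± 0.57 and 4.23 ± 0.64 on the log2 scale (SE, edgeR adjusted p = 7.24e-06 and 4.89e-05), and Socs2 by 4.90 without replicate 2 of every group. In untreated B6 cells the values for Cish were 3.78, 0.669 and 1.63 CPM with PAM3, against 0.742, 2.4 and 1.27 CPM at rest. The groups overlapped, with a higher value with PAM3 in mice 1 and 3 and a lower one in mouse 2 (log2 fold change 0.36 ± 0.52 SE, edgeR adjusted p = 0.565). The direction was set by single libraries, since the value was -0.49 without untreated PAM3 replicate 1 and 1.39 (adjusted p = 0.00573) without replicate 2 of every group.

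Socs2 in untreated B6 cells stood at 0.358, 0.0356 and 0.0563 CPM with PAM3, against 0.155, 0.53 and 0.332 CPM at rest (log2 fold change -1.57 ± 0.75 SE, edgeR adjusted p = 0.081, and -3.06 at 0.00328 without PAM3 replicate 1). In Ch25h-/- cells it stood at 0.0955, 0.0871 and 0.0465 CPM with PAM3, against 0.198, 1.17 and 0.298 CPM at rest. The Ch25h-/- groups did not overlap and Socs2 fell by 2.73 on the log2 scale (SE 1.05, edgeR adjusted p = 0.0331), but the PAM3 libraries held 2, 2 and 1 counts. This call was lost without any 1 of the 3 PAM3 libraries or resting replicate 2, the library high in Cd4 and in neutrophil, stromal and other markers, with adjusted p between 0.062 and 0.25. The log2 value was -2.92, -2.85 and -2.50 without PAM3 replicates 1, 2 and 3, and -1.64 without resting replicate 2. Cish in Ch25h-/- cells averaged 0.498 ± 0.286 CPM with PAM3 and 1.32 ± 0.567 CPM at rest (log2 fold change -1.39 ± 0.72 SE, edgeR adjusted p = 0.106, and 0.0318 under the DESeq2 Wald test).

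**Figure D3:**
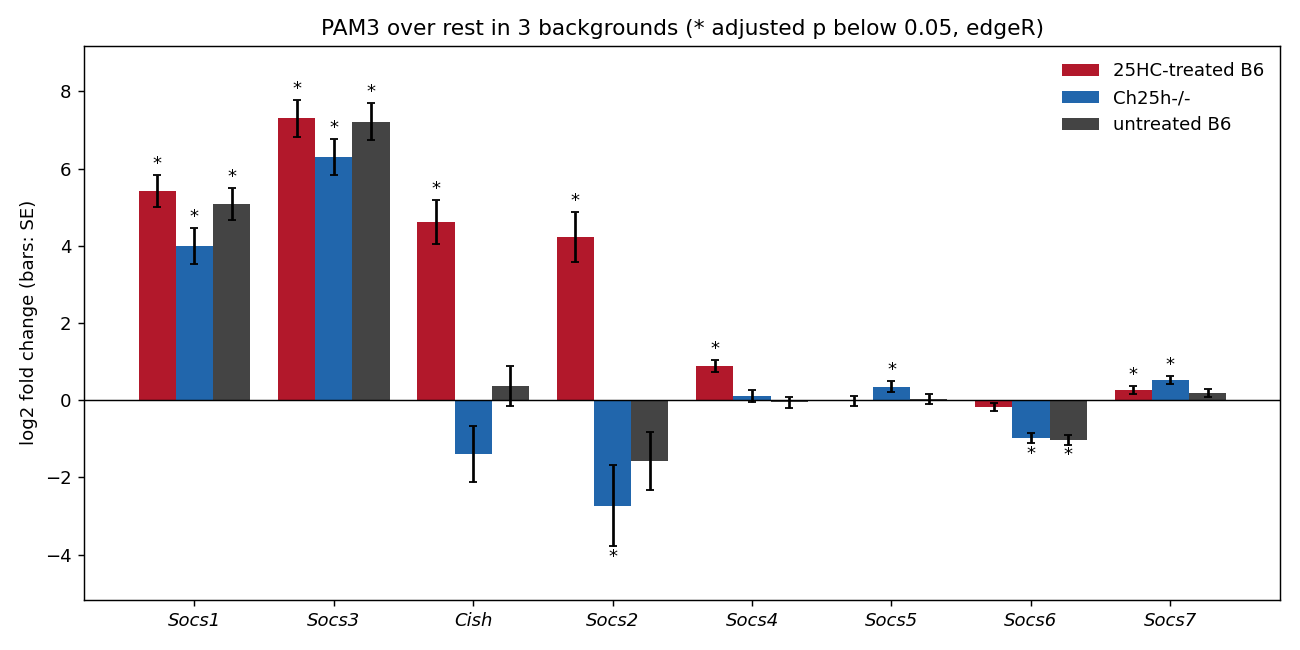
Log2 fold change of PAM3 over rest for each member in 25HC-treated B6, Ch25h-/- and untreated B6 cells, with bars for the SE and stars for an adjusted p below 0.05 in edgeR. Socs1 and Socs3 rise in all 3 backgrounds, whereas Cish and Socs2 rise in 25HC-treated B6 cells, by 4.62 and 4.23, and have values between -2.73 and 0.36 in the other backgrounds.

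Socs6 fell with PAM3 in both backgrounds that received no 25HC. It stood at 31, 32.3 and 27.9 CPM with PAM3, against 63.2, 64.4 and 52.6 CPM at rest, in Ch25h-/- cells, and at 29.8, 24.3 and 24.1 CPM with PAM3, against 50, 54 and 56 CPM at rest, in untreated B6 cells. PAM3 and resting libraries were apart in both (log2 fold change -0.98 ± 0.12 SE in Ch25h-/- cells, edgeR adjusted p = 4.96e-06, and -1.03 ± 0.12 SE in untreated B6 cells, adjusted p = 2.46e-06). In 25HC-treated B6 cells, where resting Socs6 was already lower, the value was -0.18 (adjusted p = 0.202).

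Socs4 rose with PAM3 in 25HC-treated B6 cells (log2 fold change 0.88 ± 0.15 SE, edgeR adjusted p = 0.0001). Its values were 0.11 in Ch25h-/- cells and -0.06 in untreated B6 cells (adjusted p = 0.532 and 0.74). Socs7 was called higher in Ch25h-/- cells (0.53 ± 0.10 SE, adjusted p = 0.00028) and in 25HC-treated B6 cells (0.26 ± 0.10 SE, adjusted p = 0.0296), and had a value of 0.19 in untreated B6 cells (adjusted p = 0.106). Socs5 was called higher in Ch25h-/- cells (0.35 ± 0.14 SE, adjusted p = 0.0348), with values of -0.01 in 25HC-treated and 0.02 in untreated B6 cells (adjusted p = 0.945 and 0.887). The Socs7 call in 25HC-treated B6 cells was lost on leaving out 1 of 4 libraries (adjusted p up to 0.173), and the Socs5 call on leaving out 1 of 5 (adjusted p up to 0.145).

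For Ch25h-/- against B6 cells edgeR called no member, at rest or with PAM3, without or with the mouse number as replicate block. At rest 0% of all tested genes were called higher and 0.00785% lower, 1 gene in all. With PAM3 these shares were 0.0471% and 0.126%, or 22 genes. At an unadjusted p under 0.05 the counts were 1 of 8 members (Socs7) and 704 of all tested genes at rest, and 2 of 8 members (Socs1 and Cish) and 1784 of all tested genes with PAM3. The DESeq2 Wald test called no member and 20 genes at rest, and 2 members and 392 genes with PAM3.

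With PAM3 Socs1 stood at 14.4, 4.01 and 8.69 CPM in Ch25h-/- cells, against 25.3, 21.7 and 20.6 CPM in B6 cells. All Ch25h-/- libraries were below all B6 libraries (log2 fold change -1.32 ± 0.34 SE, edgeR adjusted p = 0.0971, -1.34 at 0.0501 with the mouse number as replicate block, and -1.30 at 0.0205 under the DESeq2 Wald test). In edgeR it was called without Ch25h-/- replicate 1 (-1.83, adjusted p = 0.0272) and without replicate 2 of every group (-0.99, adjusted p = 0.0331). Socs3 stood at 288, 209 and 257 CPM in Ch25h-/- cells, against 362, 352 and 369 CPM in B6 cells, again with no overlap (log2 fold change -0.52, edgeR adjusted p = 0.533). Cish stood at 0.716, 0.174 and 0.604 CPM in Ch25h-/- cells, against 3.78, 0.669 and 1.63 CPM in B6 cells, and the groups overlapped (log2 fold change -1.98 ± 0.65 SE, edgeR adjusted p = 0.168). The adjusted p was 0.165 with the mouse number as replicate block, 0.038 without replicate 2 of every group and 0.0293 under the DESeq2 Wald test.

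The interaction of PAM3 with genotype was called for none of the members, with an edgeR adjusted p of 1 for each, and for 0% of all tested genes upward and 0% downward. At an unadjusted p under 0.05 it reached 1 of 8 members (Socs7) and 598 of all tested genes, and the DESeq2 Wald test called no member and 2 genes.

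The make-up of the family was described as CPM per kilobase of all annotated exons of a gene, merged. These lengths were 2.89 kb for Socs3, 6.42 kb for Cish and 9.53 kb for Socs2. Which transcripts were expressed was not measured, so shares and ranks between genes depend on this choice of length. In untreated B6 cells at rest Socs4 to Socs7 made up most of the total, with Socs4 at 33.7%, Socs5 at 22.8%, Socs6 at 19.6% and Socs7 at 18.4%. Socs3 made up 83.7% in 25HC-treated B6 cells with PAM3, 76.5% in Ch25h-/- cells with PAM3 and 81.3% in untreated B6 cells with PAM3, against 6.45%, 4.68% and 3.43% in the same cells at rest. On this scale Cish stood at 6.43 ± 0.407 CPM per kilobase with 25HC and PAM3, close to Socs5 at 6.41 ± 0.109, and Socs2 stood at 0.767 ± 0.141. In untreated B6 cells with PAM3, Cish stood at 0.316 ± 0.248 and Socs2 at 0.0157 ± 0.0189.

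**Figure D4:**
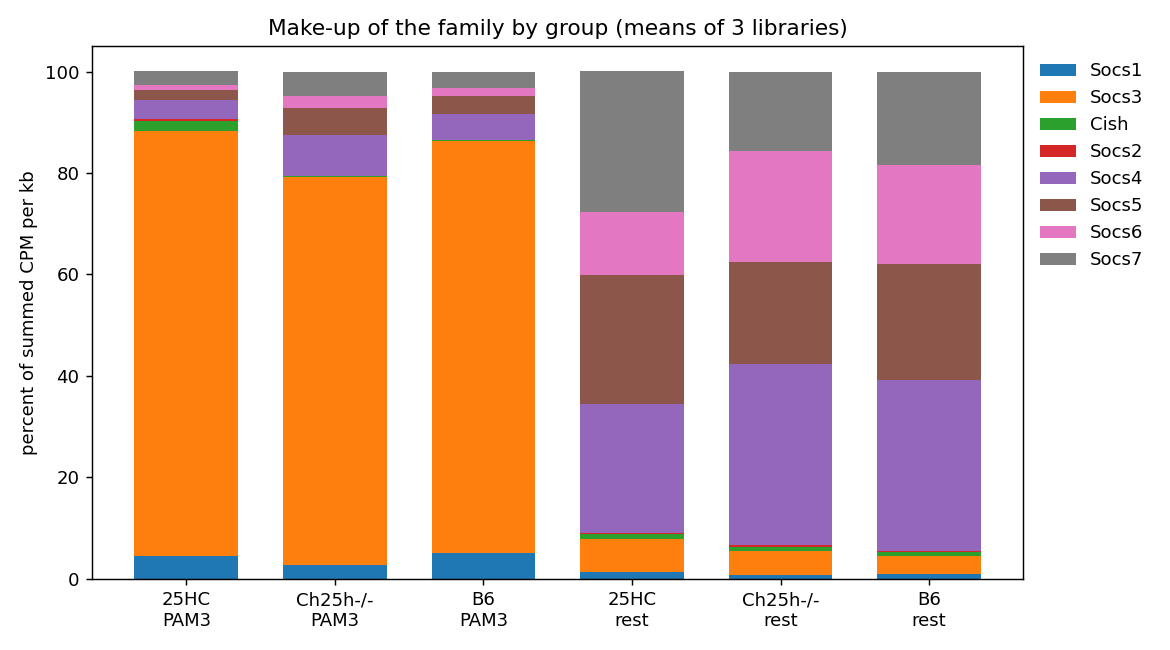
Share of each member in the summed CPM per kilobase of the family, in percent, from the mean of 3 libraries in each of the 6 groups. Socs3 takes 76.5 to 83.7% in the 3 groups with PAM3 and 3.43 to 6.45% in the 3 groups at rest.

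The order of the group means differed among members. Libraries of neighbouring groups did not overlap for Socs1 and Socs3 among the PAM3 groups, which ran from 25HC-treated B6 over untreated B6 to Ch25h-/- cells. The step from untreated B6 to Ch25h-/- cells was called for neither (edgeR adjusted p = 0.0971 and 0.533). How many of all tested genes have groups apart in this way was not counted. For Socs2, all groups below the 25HC and PAM3 group overlapped with the next in order, and for Cish the same held along the 4 groups between 2.03 and 1.32 CPM, the last of which was apart from Ch25h-/- cells with PAM3 at 0.498 CPM. Socs7 was the member whose 6 groups were each apart from the next, from 61.6 ± 4.74 CPM with 25HC and PAM3 down to 27.2 ± 2.96 CPM in Ch25h-/- cells at rest. Of these steps, Ch25h-/- against B6 was called neither with PAM3 nor at rest (edgeR adjusted p = 0.639 and 0.887). The step from rest to PAM3 in untreated B6 cells was not called either (adjusted p = 0.106). Socs5 varied least, with group means between 31 and 41.5 CPM.

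Genes with the most similar pattern were sought by Pearson's r of log2 CPM over the 18 libraries, which share the same 6 groups, so r describes these libraries and carries no test. Socs3 was most like Zc3h12a (0.996), which encodes an RNase that degrades inflammatory mRNAs, followed by Bcl2a1d (0.992) and Irak3 (0.990), a brake on Toll-like receptor signalling. Socs1 was most like Gys1 (0.989), Heatr6 (0.983) and Bcl2a1d (0.981). Cish was most like Rab11fip1 (0.967), Sqrdl (0.967) and Slc27a4 (0.964), and Socs2 was most like Ints12 (0.967), Clec4n (0.962) and Tstd2 (0.960). For the less variable members the nearest genes were Taok1 for Socs4 (0.967), Sf3b3 for Socs5 (0.949), Pcmtd2 for Socs6 (0.967) and B4galt5 for Socs7 (0.976). Of the 24 genes found in this way, 4 were found again by Spearman's rho and 7 by Pearson's r over the 6 group means.

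Other genes of the pathway were followed in 8 lists of 88 genes, of which 75 were tested. For 25HC with PAM3, 21.5% of all tested genes rose and 23.6% fell, the shares beside which the list counts stand. Among cytokine ligands of JAK-coupled receptors, 12 of 18 were tested, and 7 were higher and 3 lower in 25HC-treated than in untreated B6 cells with PAM3, with a median log2 fold change of 2.28. Osm, which encodes oncostatin M, a ligand of gp130-containing receptors, stood at 133, 109 and 127 CPM with 25HC and PAM3, against 11.4, 7.06 and 9.23 CPM with PAM3 alone. It rose with no overlap (log2 fold change 3.74 ± 0.23 SE, edgeR adjusted p = 9.35e-08), whereas Il15 fell (-1.66 ± 0.19 SE, adjusted p = 1.06e-05).

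Csf2 and Il6 were singled out after their values were seen, because their products act through the pathways these members are known to restrain. Both are among the 7 ligands called higher. The 3 called lower included Il10 (log2 fold change -2.03 ± 0.28 SE, edgeR adjusted p = 3.87e-05) and Ebi3 (-1.20 ± 0.23 SE, adjusted p = 0.000642). Csf2, which encodes GM-CSF, an activator of STAT5, stood at 18, 19.4 and 14.8 CPM in 25HC-treated B6 cells with PAM3, against 3.55, 0.427 and 1.46 CPM in untreated B6 cells with PAM3. It rose (log2 fold change 3.32 ± 0.70 SE, edgeR adjusted p = 0.0025), and among the untreated libraries replicate 1 was highest, as for Cish and Socs2. In Ch25h-/- cells with PAM3 it stood at 0.668, 0 and 0.186 CPM. Il6 averaged 633 ± 64.6 CPM with 25HC and PAM3 and 32.3 ± 29.8 CPM with PAM3 alone (log2 fold change 4.30 ± 0.71 SE, edgeR adjusted p = 0.000188). The part of these ligands in the levels of Cish, Socs2 or Socs3 was not tested.

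**Figure D5:**
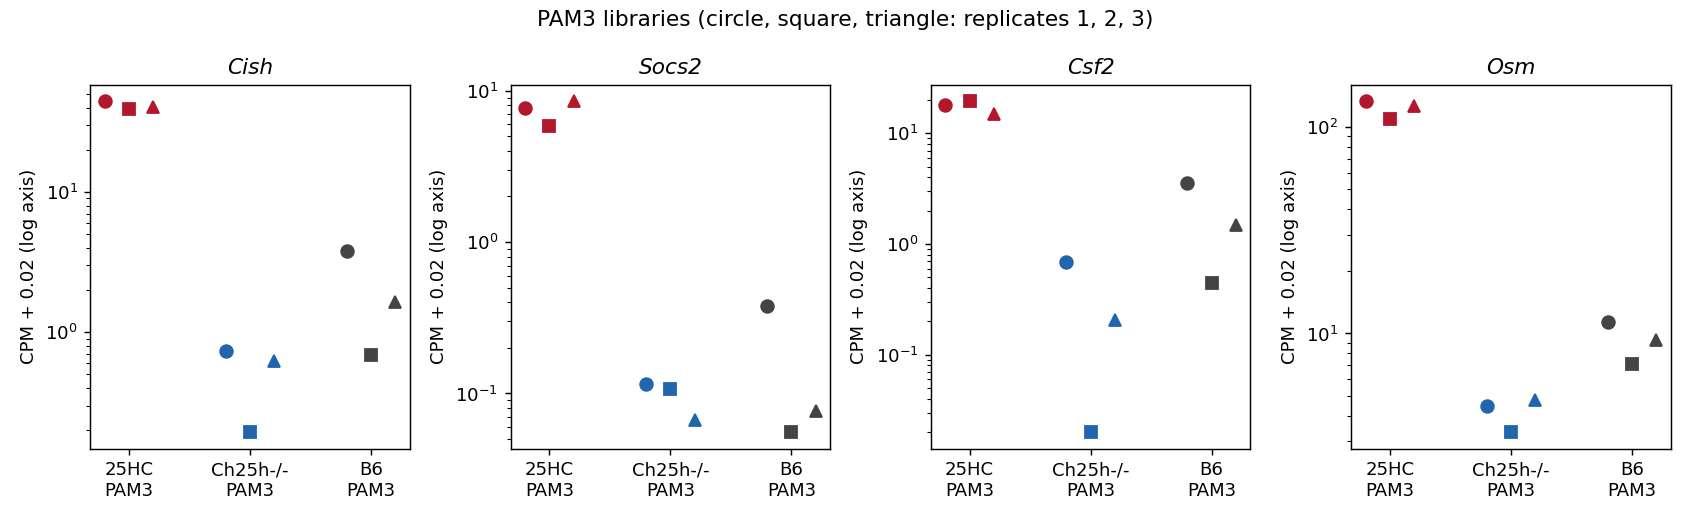
Levels of Cish, Socs2, Csf2 and Osm in the 9 libraries with PAM3 (CPM plus 0.02 on a log y axis; symbols mark replicates 1 to 3). All 4 genes are higher in the 3 libraries with 25HC than in the other 6, and replicate 1 is the highest of the untreated B6 libraries in each.

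Receptor subunits moved in both directions with 25HC under PAM3. Of 26 listed, 21 were tested, and 8 were higher, with Il7r at 4.15 ± 0.45 (log2 fold change ± SE, edgeR adjusted p = 6.74e-06), and 4 were lower, with Il15ra at -1.48 ± 0.16 (adjusted p = 7.03e-06). Csf2rb and Csf2rb2, both called higher, are near-identical paralogs between which counts may be split. The median log2 fold change over the receptors was 0.09.

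JAK and STAT genes were also called in both directions with 25HC under PAM3, with medians of -0.18 and -0.36. Of 4 JAK genes 1 was higher and 2 were lower, among them Jak3 (log2 fold change -1.28 ± 0.24 SE, edgeR adjusted p = 0.000607). The one called higher was Jak2 (0.90 ± 0.27 SE, adjusted p = 0.0118). Jak2 averaged 540 ± 10.9 CPM with 25HC and PAM3 and 289 ± 130 CPM with PAM3 alone. Of 7 STAT genes 1 was higher and 4 were lower. Stat5a, a STAT that induces Cish and Socs2 in other settings, averaged 25.8 ± 1.76 CPM with 25HC and PAM3 and 42.8 ± 4.62 CPM with PAM3 alone (-0.73 ± 0.09 SE, adjusted p = 1.74e-05).

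Of 8 genes known to respond to STAT3 or STAT5, 3 were higher and 2 lower with 25HC under PAM3. Pim1, which encodes a survival kinase, rose (log2 fold change 1.58 ± 0.18 SE, edgeR adjusted p = 7.99e-06), and its relative Pim2 fell (-2.54 ± 0.26 SE, adjusted p = 3.37e-06). The median of this list was -0.10. At rest 4 of the 8 were higher with 25HC and none lower, led by Nfil3 (1.49 ± 0.28 SE, adjusted p = 0.00184). Of all tested genes 14.8% were higher and 11.4% lower with 25HC at rest.

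Of 11 other brakes on JAK-STAT signalling, 2 were higher and 5 lower with 25HC under PAM3, with a median of -0.20. The phosphatase gene Ptpn2 rose (log2 fold change 0.89 ± 0.10 SE, edgeR adjusted p = 5.48e-06) and Ptpn6 fell (-0.91 ± 0.14 SE, adjusted p = 8.02e-05). Of the 6 elongin and cullin partners of the SOCS box, Tceb1 alone was called, and it was lower (-0.55 ± 0.17 SE, adjusted p = 0.0178).

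SOCS4 to SOCS7 are reported to act on insulin receptor substrates and growth factor receptors, of which 8 were listed and 6 tested. All 6 were higher with 25HC under PAM3, against 21.5% of all tested genes, with a median of 1.95. Kit, among the 6, was near the floor, averaging 0.323 CPM with 25HC and PAM3 and 0.0865 CPM with PAM3 alone. Irs2 stood at 29.3, 23.5 and 25.9 CPM with 25HC and PAM3, against 1.71, 1.63 and 0.985 CPM with PAM3 alone (log2 fold change 4.16 ± 0.22 SE, edgeR adjusted p = 2.74e-08), and Egfr rose by 2.00 ± 0.27 (adjusted p = 2.95e-05). With PAM3 against rest in untreated B6 cells 2 of these 6 were higher and 4 lower, with Irs2 at -2.69 ± 0.21 (adjusted p = 8.18e-08).

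The same lists were followed through the PAM3 response of untreated B6 cells, where 31.3% of all tested genes rose and 30.8% fell. Of the 8 STAT3 and STAT5 responsive genes 7 rose and none fell, led by Pim2, which averaged 278 ± 84.3 CPM with PAM3 and 2.78 ± 0.917 CPM at rest (log2 fold change 6.62 ± 0.31 SE, edgeR adjusted p = 6.72e-10). Of the 6 elongin and cullin partners 5 rose, among them Tceb1 (1.10 ± 0.18 SE, adjusted p = 6.65e-05). Of 21 receptor subunits 5 rose and 9 fell, and Il6st, which encodes gp130, the receptor subunit that SOCS3 binds, averaged 46.9 ± 7.39 CPM with PAM3 and 240 ± 40.2 CPM at rest (-2.36 ± 0.21 SE, adjusted p = 2.53e-07). Il6st also had a positive interaction of PAM3 with 25HC (2.42 ± 0.29 SE, edgeR adjusted p = 0.000134), as had Osm (2.90 ± 0.31 SE, adjusted p = 6.53e-05) and Irs2 (3.25 ± 0.28 SE, adjusted p = 6.53e-05).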

How the data were processed

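RNA-seq of polyadenylated RNA was available for 18 libraries in 6 groups. The authors deposited raw counts for each gene. Per the submitters' processing notes, FastQC 0.11.9, GSNAP, featureCounts of Subread 1.5.2 and edgeR 3.26.8 were used with the GRCm38 (mm10) mouse genome. No source used here gives the annotation release, the strand setting or how multiply aligned reads were handled.

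Counts were tested with edgeR 4.0.16 (R 4.3.3, limma 3.58.1). Genes were kept by filterByExpr, scaled with TMM and fitted with 1 mean per group over all 18 libraries. Each of 9 comparisons used its robust two-sided quasi-likelihood F test, p-values were adjusted by Benjamini-Hochberg over 12741 genes, and genes with adjusted p below 0.05 were called. Common dispersion was 0.037, with 12 residual degrees of freedom. SEs were derived from the log2 fold change and F. Similarity was computed on log2 CPM (prior count 2) and genes with a mean of at least 5 CPM. Per-length values used all GENCODE M21 exons of a gene, merged. Figures used matplotlib 3.10.9. The procedure was also run on simulated data with far fewer changed genes than were called here, and no result rests on that run.

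The members and lists were chosen with earlier results of these data known, so their p-values are not independent support. The text names all members, Ch25h, up to 2 called genes of smallest adjusted p per list, and similar genes, the first 3 for Socs1, Socs2, Socs3 and Cish and the first for the others. Csf2, Il6, Il10, Ebi3, Kit, Jak2, Csf2rb and Csf2rb2 were added after their values were seen. A gene that met this rule is not reported here.

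The labels number the mice, which pairs libraries within a genotype. Deviations of same-numbered libraries from their group means correlated with r between -0.162 and 0.581 within a genotype. Across genotypes, where the numbers mark different mice, r was 0.574, 0.705 and 0.327 at rest, over 0.1 in every pair, and 0.322, 0.459 and 0.0949 with PAM3. Alternatives were DESeq2 1.42.0 (size factors and Wald test), other filters, fits of the groups compared only, the replicate block, and libraries left out. No duplicate libraries were found.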

Additional observations from a re-analysis of the deposited data

Results flagged for a closer look

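For 4 members the effect of 25HC with PAM3 differed from its effect at rest by a test of the difference itself, the interaction in edgeR with adjustment over all tested genes. The difference was 5.80 on the log2 scale for Socs2 (adjusted p = 0.00115) and 4.26 for Cish (adjusted p = 0.0015). It was 0.94 for Socs4 (adjusted p = 0.00461) and 0.86 for Socs6 (adjusted p = 0.00218). Among all tested genes this interaction was called upward for 12.5% and downward for 15.8%.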

How the results depend on the processing

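Over all members, comparisons and settings, 951 values kept their direction and side of the threshold, 26 lost a call, 15 gained one and 36 changed sign. The calls of Socs2 and Cish for 25HC with PAM3, for PAM3 in 25HC-treated B6 cells and for their interaction held under every setting. With the animal as replicate block 7 members were called for 25HC with PAM3 in place of 6, Socs6 being added (adjusted p = 0.049), and the block changed no other call. For 25HC at rest, 2 members were called, and 2 to 4 with 1 library left out. For Ch25h-/- with PAM3, 0 were called, 2 under the DESeq2 Wald test, 0 to 1 with 1 library left out, and 2 without replicate 2 of every group. Uncalled values of Socs5 changed sign: for PAM3 in untreated B6 cells to -0.0023 with DESeq2 size factors, -0.00088 in the Wald test, -0.0028 with no filter and -0.0038 at 1 CPM in 3 libraries, and with no filter to 0.03 for PAM3 in 25HC-treated B6 cells and 0.03 for the interaction with 25HC. Without replicate 2 of every group these signs changed: Socs5 to -0.13 for PAM3 in untreated B6 cells and 0.03 for the interaction with 25HC, Socs3 to -0.85 for that interaction, and Socs2 and Socs4 to -0.08 and -0.09 for Ch25h-/- at rest. Leaving out 1 library gave signs of both kinds for these log2 values. For 25HC at rest they ran from -0.45 to 0.60 for Socs2 and from -0.15 to 0.70 for Cish. For PAM3 in untreated B6 cells they ran from -0.24 to 0.09 for Socs4, from -0.13 to 0.15 for Socs5 and from -0.49 to 0.92 for Cish, and in 25HC-treated B6 cells from -0.12 to 0.07 for Socs5. For Ch25h-/- at rest they ran from -0.56 to 1.03 for Socs2, -0.31 to 1.01 for Socs3, -0.04 to 0.17 for Socs4 and -0.60 to 0.33 for Cish, and with PAM3 from -1.43 to 0.86 for Socs2. For the interaction with 25HC they ran from -0.05 to 0.50 for Socs1, -0.53 to 0.40 for Socs3, -0.16 to 0.12 for Socs5 and -0.0038 to 0.14 for Socs7, and for that with genotype from -1.97 to 0.33 for Socs2 and -0.04 to 0.16 for Socs6. The cause was not tested. Low counts limit Socs2 most, at 1 to 14 per library with PAM3 and no 25HC. The deepest of these libraries, at 150.4 M, held 5.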
